A study of Mus musculus with 16 samples.

Results

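The response of the left atrium (LA) to angiotensin II (AngII) was compared between aged female mice with ovaries and mice ovariectomized (Ovx) in mid-life. The quantity examined was the interaction, that is, the AngII response in Ovx mice minus the AngII response in mice with ovaries, on log2(value + 1). All 16 LA libraries and the 14273 of 24972 listed genes with a mean normalised count of at least 10 were used. All mice were female C57BL6/J aged 24 months. The 4 Ctrl libraries came from mice with neither ovariectomy nor AngII, and the 4 AngII libraries from mice treated for 4 weeks. The 4 Ovx libraries came from mice ovariectomized at 12 months, and the 4 Ovx + AngII libraries from such mice given AngII for 4 weeks. The peptide was delivered by osmotic minipump. Animals without AngII had sham surgery without a vehicle pump, so pump and peptide cannot be told apart. Bulk mRNA of the whole LA was sequenced. The sources do not settle whether a library is 1 mouse or a pool, and the p-values measure only the spread between these libraries.

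AngII, the effector peptide of the renin-angiotensin system, raises blood pressure through the AT1 receptor and loads the heart. In loaded myocardium, cardiomyocytes switch on fetal and stress genes such as natriuretic peptides and skeletal actin, while fibroblasts make collagen and matricellular proteins. An interaction can arise in 2 places. Either the untreated Ovx and Ctrl mice already differ, or the 2 AngII-treated groups do. The interaction was therefore split into an untreated part (Ctrl minus Ovx) and an AngII-level part (Ovx + AngII minus AngII), which sum to it within 0.048 for every named gene. Values after ± are standard errors (SE) of log2 differences. A difference was assigned to 1 place where that part made up at least 60% of it and otherwise to both, as a description without a test. Where the 2 parts have opposite signs, the larger part exceeds the whole interaction in size. For a very small interaction the assignment then says little. These assignments are given with all 16 libraries and without Ctrl replicate 4, the fits compared below. Both fits use values brought to 1 scale, as described below, and many assignments differ on the values as deposited.

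A pair of features of the table bear on every value below. First, Ctrl replicate 4 stands apart. GEO's labels call it a control, whereas in the table's top line the heading of the AngII group begins over its column. It correlated on average 0.945 with the other Ctrl libraries, 0.956 with AngII, 0.940 with Ovx and 0.946 with Ovx + AngII libraries, while the other 15 libraries correlated 0.963 to 0.980 with their own groups. Its 7 lung epithelium markers in the table, 2 of them tested, summed to 528 normalised counts against 26.3 to 72.4 elsewhere, and its 13 macrophage and monocyte markers to 51388 against 16318 to 33581. Its 9 neutrophil markers in the table, 4 of them tested, summed to 1418 against 134 to 466. Of the lung markers, Sftpb was listed at 0 in all libraries. Of the column total, haemoglobin genes made up 0.970% in Ctrl replicate 4, 1.46% in AngII replicate 4 and 0.0613% to 0.349% in the rest. Libraries were kept in the groups of their labels, and results are given with and without Ctrl replicate 4. Second, the deposited values carry 2 scales, the median gene being 0.17 lower on the log2 scale in both Ovx groups. The interaction is free of this shift. The untreated and AngII-level parts are given on values rescaled by median of ratios, whereas the per-library values below are as deposited. Column totals were 17598222 to 21513796. The 14 atrial identity genes, among them Nppa, were all detected, and 1 of the 10 ventricular markers in the table (Hand1) was listed at 0 throughout. The 10 ventricular markers, 6 of them tested, summed to 9432 to 14106 normalised counts per library, and the 14 atrial genes to 654126 to 1219620.

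No gene passed the interaction test in all 16 libraries (limma, 0% of 14273 genes with an adjusted p of 0.05 or less, smallest adjusted p = 0.838). At an unadjusted p under 0.05 there were 828 genes, 413 above 0 (2.89% of all genes) and 415 below 0 (2.91%), where about 714 are expected with no difference at all. Without Ctrl replicate 4, the smallest adjusted p was 0.266, no gene passed, and 980 genes had an unadjusted p under 0.05 (440 above and 540 below 0). The count was 589 without Ovx replicate 2 and 1169 without Ctrl replicate 1. For a gene of median precision (SE 0.19), a log2 difference of 0.40 was needed for an unadjusted p of 0.05. All values below are therefore descriptions of single genes that did not pass the adjusted test for the interaction.

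The 2 responses themselves did contain genes that passed, both thresholds being an adjusted p of 0.05 or less and a log2 change of 1 or more. In mice with ovaries, AngII raised 49 genes (0.343%) and lowered 34 (0.238%). In Ovx mice it raised 185 (1.3%) and lowered 148 (1.04%). These counts do not show that the responses differ, since the difference itself was not called for any gene. They also rest on the libraries and on the fit. In mice with ovaries 222 genes were called without Ctrl replicate 4, 30 without Ctrl replicate 1 or without AngII replicate 3, and 2 when only the 2 compared groups were fitted. In Ovx mice the count was 209 without Ovx + AngII replicate 3 and 380 without Ctrl replicate 4. Between Ovx and Ctrl mice no gene was called (0%, limma, 1235 genes at an unadjusted p under 0.05). The untreated groups were without overlap in 4.46% of genes. Between Ovx + AngII and AngII mice no gene was called either (0%, limma, 881 genes at an unadjusted p under 0.05), and these groups were without overlap in 4.54%. On deposited values, which hold the scale shift, 32 and 5 genes were called.

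**Figure D1:**
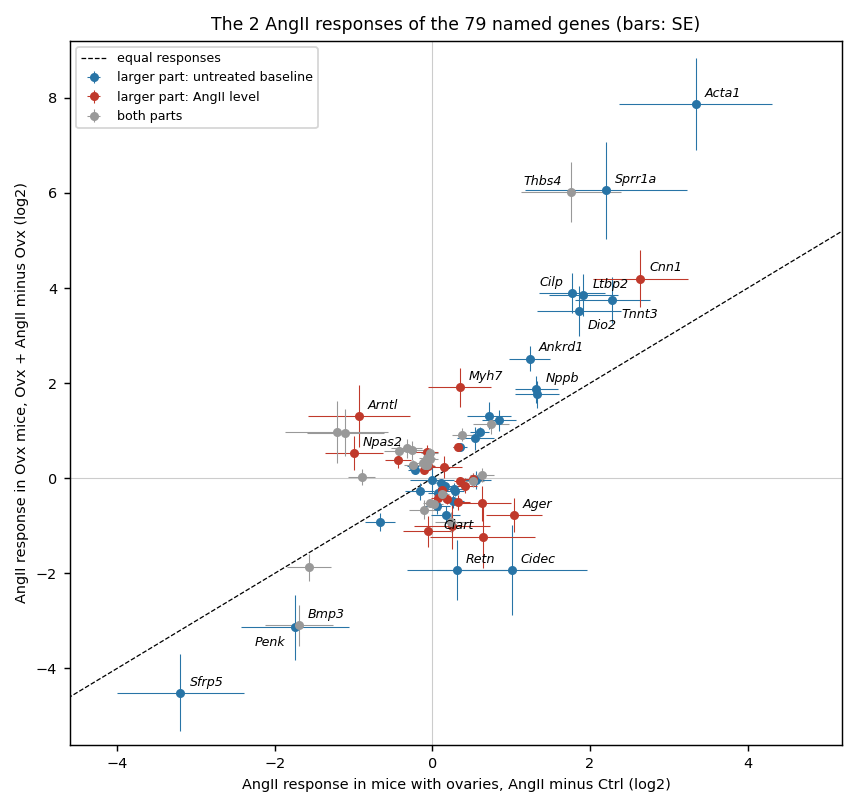
The AngII response in mice with ovaries (x axis, AngII minus Ctrl, log2) against that in Ovx mice (y axis, Ovx + AngII minus Ovx, log2) for the 79 named genes, with SE bars, coloured by the place that holds most of the interaction. Acta1 (3.34 and 7.87) and Thbs4 (1.76 and 6.02) lie farthest above the dashed line of equal responses, and Cidec (1.01 and -1.92) farthest below it.

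Several of the largest positive interactions among the named genes were in cardiomyocyte stress and matrix genes, and for Acta1, Sprr1a, Ltbp2 and Ankrd1 most of it came from a lower level in untreated Ovx mice. Acta1, the skeletal alpha-actin that is re-expressed in stressed myocardium (chromosome 8, 123891758 to 123894775), was near 0 in Ovx mice. Acta1 had 34.2, 4.01, 188 and 27.8 normalised counts in the 4 Ctrl libraries and 467, 787, 498 and 53.4 with AngII. It had 5.75, 0, 3.78 and 0.907 in Ovx and 339, 623, 1669 and 520.0 in Ovx + AngII mice. The lowest Ctrl library lay below the highest Ovx library, and AngII replicate 4 lay far below its group. The response was 3.34 ± 0.97 in mice with ovaries (limma adjusted p = 0.0749) and 7.87 ± 0.97 in Ovx mice (limma adjusted p = 0.000231). The interaction was 4.53 ± 1.38, unadjusted p = 0.00458, and 4.57 without Ctrl replicate 4. The untreated difference (Ovx minus Ctrl) was -3.36 ± 0.98 and the difference under AngII 1.22 ± 0.98, so that the AngII-level share was 26.7% and the untreated baseline held most of it in both fits. Without replicates 4 of both the Ctrl and AngII groups, the interaction was 3.73, with 0.38 under AngII. Acta1 shares much of its coding sequence with other actins, and its counts can be affected by how reads were divided among them.

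Thbs4, a thrombospondin of the stressed matrix (chromosome 13, 92751586 to 92794818), had one of the smallest unadjusted p-values among the named genes. Thbs4 had 29.8, 22.9, 94.6 and 47.6 normalised counts in the 4 Ctrl libraries and 355, 119, 160.3 and 64.0 with AngII. It had 12.5, 2.94, 2.85 and 12.7 in Ovx and 466, 156, 956 and 713 in Ovx + AngII mice. All Ovx libraries lay below all Ctrl libraries, whereas the 2 AngII-treated groups overlapped. It rose by 6.02 ± 0.64 in Ovx mice (adjusted p = 8.33e-05), against 1.76 ± 0.64 in mice with ovaries (adjusted p = 0.143). The interaction was 4.27 ± 0.90, unadjusted p = 0.000214, and 4.21 without Ctrl replicate 4. Both parts contributed in both fits, with -2.41 ± 0.64 untreated and 1.87 ± 0.64 under AngII. Sprr1a, a small proline-rich protein induced by cardiac stress (chromosome 3, 92483954 to 92485881), followed the pattern of Acta1. Sprr1a had 11.8, 37.5, 50.5 and 28.5 normalised counts in the 4 Ctrl libraries and 896, 228, 145 and 10.1 with AngII. It had 3.48, 1.96, 0 and 6.32 in Ovx and 251, 56.6, 509 and 258 in Ovx + AngII mice. Its untreated groups did not overlap, while AngII replicate 4 lay below every Ctrl library. The interaction was 3.86 ± 1.45, unadjusted p = 0.0168, and 3.85 without Ctrl replicate 4, with -3.10 ± 1.02 untreated and 0.80 ± 1.02 under AngII. The untreated baseline held most of it in both fits. Without replicates 4 of both the Ctrl and AngII groups, the interaction of Sprr1a was 2.65, with -0.40 under AngII.

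**Figure D2:**
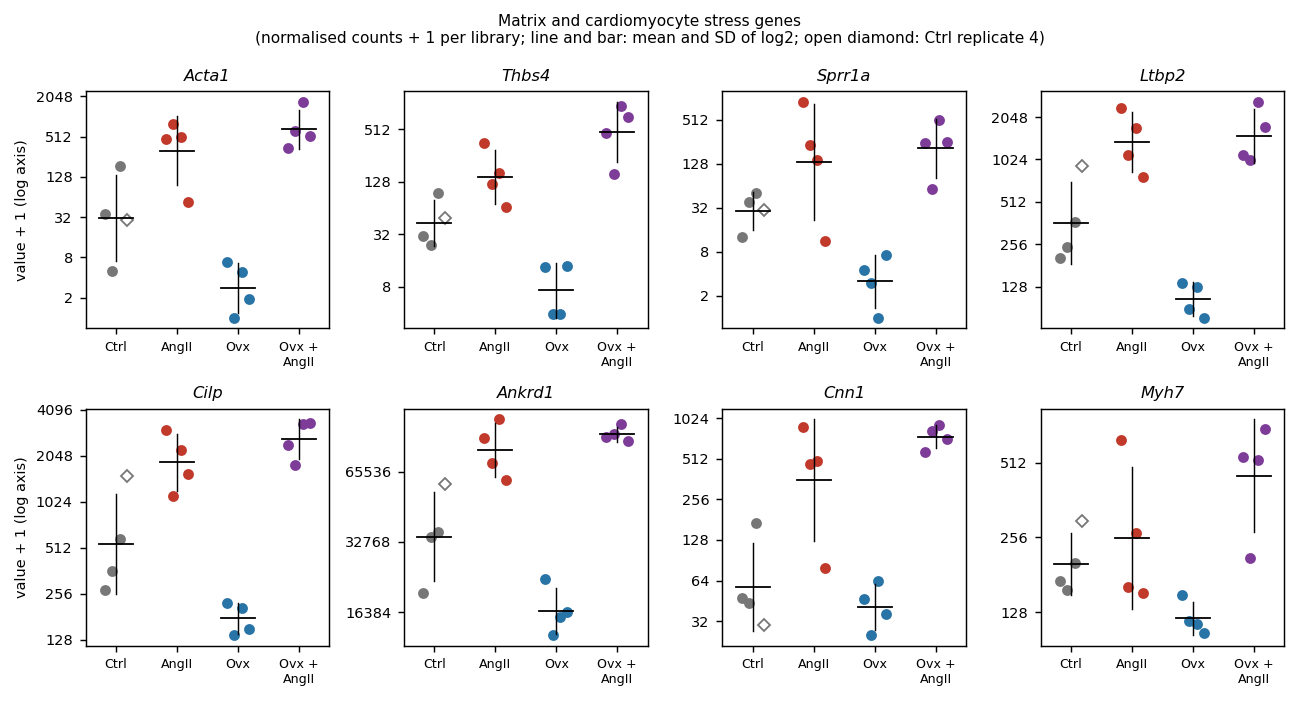
Normalised counts + 1 on a log axis in each of the 16 libraries for 8 matrix and cardiomyocyte stress genes, with the mean and SD of the log2 values per group and Ctrl replicate 4 as an open diamond. The 4 Ovx libraries hold the lowest levels of Thbs4 (2.85 to 12.7), Ltbp2 (75.8 to 134) and Cilp (137 to 223), and AngII replicate 4 lies at 78.7 for Cnn1.

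Both matrix genes Cilp and Ltbp2 rose with AngII on either side, from a lower untreated level in Ovx mice. Cilp encodes a cartilage-type matrix protein made by cardiac fibroblasts (chromosome 9, 65265180 to 65280614). Cilp had 270.2, 359.8, 588 and 1510.0 normalised counts in the 4 Ctrl libraries and 3039, 1114, 2244 and 1565 with AngII. It had 223, 137, 207 and 150.5 in Ovx and 2428, 1788, 3317 and 3347 in Ovx + AngII mice. Ctrl replicate 4 lay among the AngII libraries. Its rise was 1.77 in mice with ovaries (adjusted p = 0.0349) and 3.90 in Ovx mice (limma adjusted p = 8.33e-05). The interaction was 2.13 ± 0.59, unadjusted p = 0.00248, with -1.46 ± 0.42 untreated and 0.68 ± 0.42 under AngII. Without Ctrl replicate 4 it was 1.63, the untreated difference -0.96, and the assignment passed from the untreated baseline to both. Ltbp2, whose protein lies along elastic fibres in the matrix (chromosome 12, 84783212 to 84876558), likewise had no overlap between the untreated groups. Ltbp2 had 203, 245, 366 and 922 normalised counts in the 4 Ctrl libraries and 2384, 1097, 1712 and 766 with AngII. It had 134, 87.1, 127 and 75.8 in Ovx and 1108, 1011, 2609.7 and 1733 in Ovx + AngII mice. It rose by 1.92 and 3.85 (limma adjusted p = 0.0299 and 0.000113). The interaction was 1.94 ± 0.62, unadjusted p = 0.00617, and 1.49 without Ctrl replicate 4, with -1.63 ± 0.44 untreated and 0.31 ± 0.44 under AngII. The untreated baseline held most of it in both fits.

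Ankrd1, a stretch-responsive ankyrin repeat protein of the sarcomere and nucleus (chromosome 19, 36111965 to 36119844), was an abundant transcript with the same order of groups. Ankrd1 had 19709, 34239.7, 36046 and 58218 normalised counts in the 4 Ctrl libraries and 91275, 71097, 109629 and 60541 with AngII. It had 22629, 13069.8, 15563 and 16316 in Ovx and 91724, 95351, 104581 and 88197 in Ovx + AngII mice. It rose by 1.23 in mice with ovaries (adjusted p = 0.0219) and by 2.52 in Ovx mice (limma adjusted p = 8.20e-05). The interaction was 1.29 ± 0.37, unadjusted p = 0.00299, and 1.03 without Ctrl replicate 4, from the untreated baseline in both fits. Tnnt3, the fast skeletal troponin T (chromosome 7, 142498771 to 142516213), gave 1.47 ± 0.67, untreated in both fits (-1.50 ± 0.48, against -0.018 ± 0.48 under AngII). Its levels were 33.1 to 71.2 in Ctrl and 13.3 to 18.4 in Ovx libraries, without overlap. Without both replicates 4 its interaction was 0.69. Dio2, which activates thyroid hormone, gave 1.65 ± 0.75 and 1.03 without Ctrl replicate 4, whose 731 counts compare with 91.3 to 214 in the other Ctrl libraries. The untreated baseline held most of it in both fits.

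Myh7 and Cnn1 had the larger part of their interaction at the AngII level in both fits. Myh7, the beta myosin heavy chain (chromosome 14, 54970684 to 54994626), had 632, 161, 266 and 153 counts in AngII and 540.3, 211, 526 and 699 in Ovx + AngII mice. The untreated libraries held 156 to 296 (Ctrl) and 104 to 149 (Ovx). The interaction was 1.56 ± 0.57, unadjusted p = 0.0141, and 1.37 without Ctrl replicate 4, with 1.005 ± 0.40 under AngII and -0.56 ± 0.40 untreated. Cnn1, the smooth muscle calponin (chromosome 9, 22099221 to 22109221), had 871, 463, 492 and 78.7 counts in AngII and 574, 824, 909.9 and 713 in Ovx + AngII mice. Its interaction was 1.56 ± 0.85, unadjusted p = 0.0847, and 1.87 without Ctrl replicate 4. AngII replicate 4 (78.7) was the low library of its group. Without both replicates 4 the AngII-level difference of Cnn1 was 0.52 and its interaction 1.16.

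The promoters of the leading genes are shown because all 6 genes rose with AngII in Ovx mice, with motif letters in capitals. Sequences are the 250 bases before 1 RefSeq transcript start per gene (GRCm38.p6, the mm10 build), 5′ to 3′ on the gene's strand. For Cnn1, Ltbp2 and Ciart that start lies inside the gene's full extent, and the window reaches into it. The motifs searched on both strands were the CArG box bound by serum response factor, the MCAT element CATTCC, the AP-1 site TGANTCA and the E-box CACGTG. Of 32851 promoters of this length, 1.47% held a CArG box, 12.6% MCAT, 6.75% AP-1 and 6.02% the E-box. The Acta1 promoter (chr8:123894776-123895025, minus strand) held 1 CArG box 73 bases and 1 MCAT element 46 bases before the start.
Acta1: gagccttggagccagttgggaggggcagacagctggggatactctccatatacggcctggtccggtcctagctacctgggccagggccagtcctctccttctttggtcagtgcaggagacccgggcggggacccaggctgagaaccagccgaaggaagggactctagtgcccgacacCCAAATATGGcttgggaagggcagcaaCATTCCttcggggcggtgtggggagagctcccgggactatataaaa
The Ankrd1 promoter (chr19:36119845-36120094, minus strand) held 2 MCAT elements on the reverse strand, 210 and 123 bases before the start.
Ankrd1: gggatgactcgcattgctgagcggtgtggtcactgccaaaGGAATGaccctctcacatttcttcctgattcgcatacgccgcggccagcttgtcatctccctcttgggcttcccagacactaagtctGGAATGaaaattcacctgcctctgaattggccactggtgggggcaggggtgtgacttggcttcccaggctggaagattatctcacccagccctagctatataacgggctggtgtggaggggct
In the Thbs4 promoter (chr13:92794819-92795068, minus strand) 2 MCAT elements, 197 and 192 bases before the start, overlapped.
Thbs4: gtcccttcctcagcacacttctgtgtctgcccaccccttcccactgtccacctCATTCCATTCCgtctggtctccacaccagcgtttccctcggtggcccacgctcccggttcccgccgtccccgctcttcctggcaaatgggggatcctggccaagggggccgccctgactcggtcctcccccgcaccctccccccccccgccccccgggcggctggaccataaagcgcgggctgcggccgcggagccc
The windows of Cnn1, Cilp and Ltbp2 held none of these letters. A match is a description of the letters and not a site shown to be used.

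The remaining load-response genes had small interactions. The natriuretic peptide genes Nppa and Nppb gave 0.29 ± 0.33 and 0.55 ± 0.39, with unadjusted p = 0.39 and 0.184. Nppb rose in both responses, by 1.32 and 1.87 (limma adjusted p = 0.0218 and 0.000925). Col1a1 and Col3a1, the main fibrillar collagens, gave 0.37 ± 0.31 and 0.40 ± 0.32, Col8a1 0.44 ± 0.40 and Ctgf, a matricellular growth factor, 0.60 ± 0.40. The unadjusted p was at least 0.153 for these, and the interval of each reaches 0. With Ctrl replicate 4 left out the interactions were 0.22 (Col1a1), 0.22 (Col3a1), 0.26 (Col8a1), 0.31 (Ctgf), 0.28 (Nppa) and 0.25 (Nppb). Most of the difference was untreated for Col1a1, Col8a1, Ctgf, Nppa and Nppb in both fits. Col3a1 was split between both parts and passed to the AngII level without Ctrl replicate 4. Col6a3, of the beaded filament collagen, gave 0.54 ± 0.19 (unadjusted p = 0.00971), 0.50 without Ctrl replicate 4, also split between both parts and passing to the AngII level without that library. In the list of 15 collagens all 15 interactions were above 0, with a median of 0.36 against 0.0083 for all genes, and 1 had an unadjusted p under 0.05. Leaving out Ctrl replicate 4 gave 13 above 0, with a median of 0.24. Of these collagens 2 were called up with AngII in mice with ovaries and 7 in Ovx mice, where 0.343% and 1.3% of all genes were. In the list of 17 cardiomyocyte stress and fetal genes 14 were above 0, 6 of them at an unadjusted p under 0.05, with a median of 0.29 (0.30 without Ctrl replicate 4). The 18 matricellular genes had a median of 0.12, and the 26 TGF-beta and BMP signalling genes -0.11.

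Several named genes that fell with AngII in Ovx mice had interactions below 0, part of which rested on Ctrl replicate 4. Sfrp5, a secreted Wnt inhibitor, fell on either side, with log2 changes of -3.20 in mice with ovaries (adjusted p = 0.0453) and -4.51 in Ovx mice (limma adjusted p = 0.00304). It had 1340.0, 346, 354 and 35.7 counts in Ctrl and 556, 1173, 740.2 and 1330.2 in Ovx mice, Ctrl replicate 4 being the lowest. Its interaction of -1.32 ± 1.14 was -0.34 without that library. Penk, the enkephalin precursor, had 645, 279, 269.9 and 68.4 counts in Ctrl libraries and an interaction of -1.39 ± 0.97, -0.79 without Ctrl replicate 4. The difference was untreated for both genes, and passed to both parts for Penk without that library. Bmp3 fell on either side (-1.69 and -3.09, limma adjusted p = 0.0458 and 0.000586), with an interaction of -1.40 ± 0.61 from both parts in both fits. Mmp9, a gelatinase, fell by 1.57 and 1.87 (limma adjusted p = 0.0102 and 0.000966), with an interaction of -0.31 ± 0.40 from both parts, from the untreated baseline without Ctrl replicate 4. Agtr1a, the AT1 receptor gene, gave -0.26 ± 0.27, from the untreated baseline in both fits but from the AngII level on deposited values. Esr1, estrogen receptor alpha, gave -0.024 ± 0.39 (-0.039 without Ctrl replicate 4), and its sign turned when single libraries were left out. Its Ovx mice differed by 0.11 ± 0.28 untreated and by 0.096 ± 0.28 under AngII. Its assignment to the untreated baseline in both fits therefore places almost no difference.

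**Figure D3:**
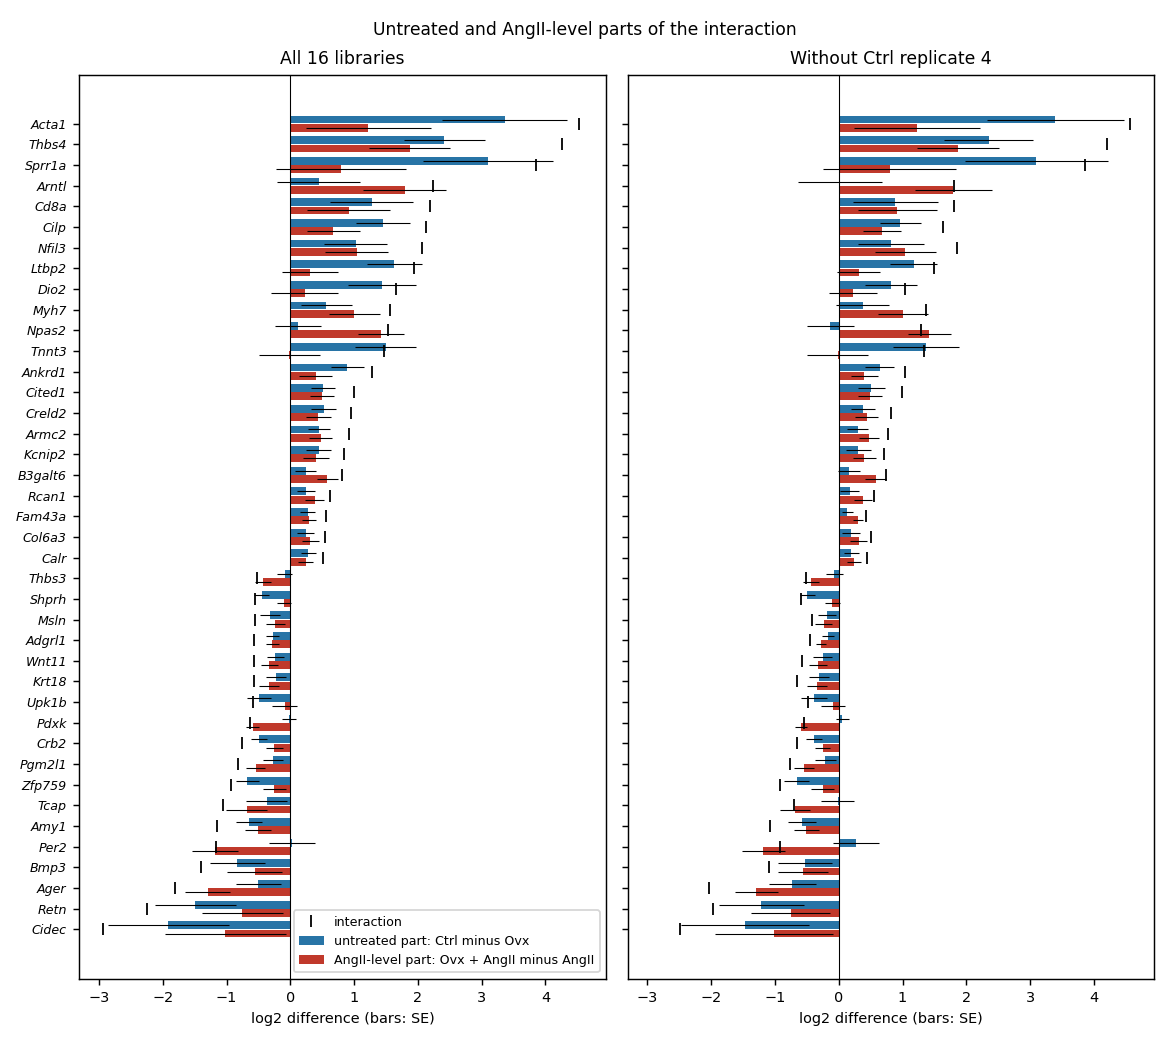
Untreated part (blue, Ctrl minus Ovx) and AngII-level part (red, Ovx + AngII minus AngII) of the interaction on the log2 scale with SE bars, for 40 named genes with an unadjusted p under 0.05 and an interaction of at least 0.5 in size, with all 16 libraries (left) and without Ctrl replicate 4 (right). Blue dominates for Acta1 and Ltbp2, red for Arntl, Npas2 and Per2, and Cilp drops from 2.13 to 1.63 without that library.

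Several clock genes had their difference at the AngII level. The molecular clock is a feedback loop in which Bmal1 (Arntl) and its partners Clock or Npas2 drive the Per and Cry repressors, Ciart and outputs such as Dbp through E-boxes, so that Arntl and Per2 peak in opposite phases. Arntl had 159, 742, 90.3 and 708 normalised counts in the 4 Ctrl libraries and 108, 98.7, 163 and 327 with AngII. It had 426, 72.7, 143 and 312 in Ovx and 462, 632, 591 and 302 in Ovx + AngII mice. The 2 AngII-treated groups overlapped by 1 library on deposited values and did not overlap after rescaling. Each untreated group held both low and high libraries. For Npas2 (chromosome 1, 39193702 to 39363240) the AngII libraries held 95.0, 63.6, 96.7 and 118 and the Ovx + AngII libraries 229, 228, 194 and 223. Per2 had 1199.9, 794, 1456 and 566 normalised counts in the 4 Ctrl libraries and 1680.0, 1515, 1317 and 1357 with AngII. It had 400.0, 1366, 1142 and 731 in Ovx and 697, 550.1, 318 and 865 in Ovx + AngII mice. All 4 Ovx + AngII libraries lay below all 4 AngII libraries. Within the Ctrl group, replicates 1 and 3 were low in Arntl and high in Per2, and replicates 2 and 4 the reverse. Ciart had 376, 85.5, 561 and 45.6 counts in the same 4 Ctrl libraries. In the Ovx group replicate 1 was high in Arntl and low in Per2 and replicate 2 the reverse.

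**Figure D4:**
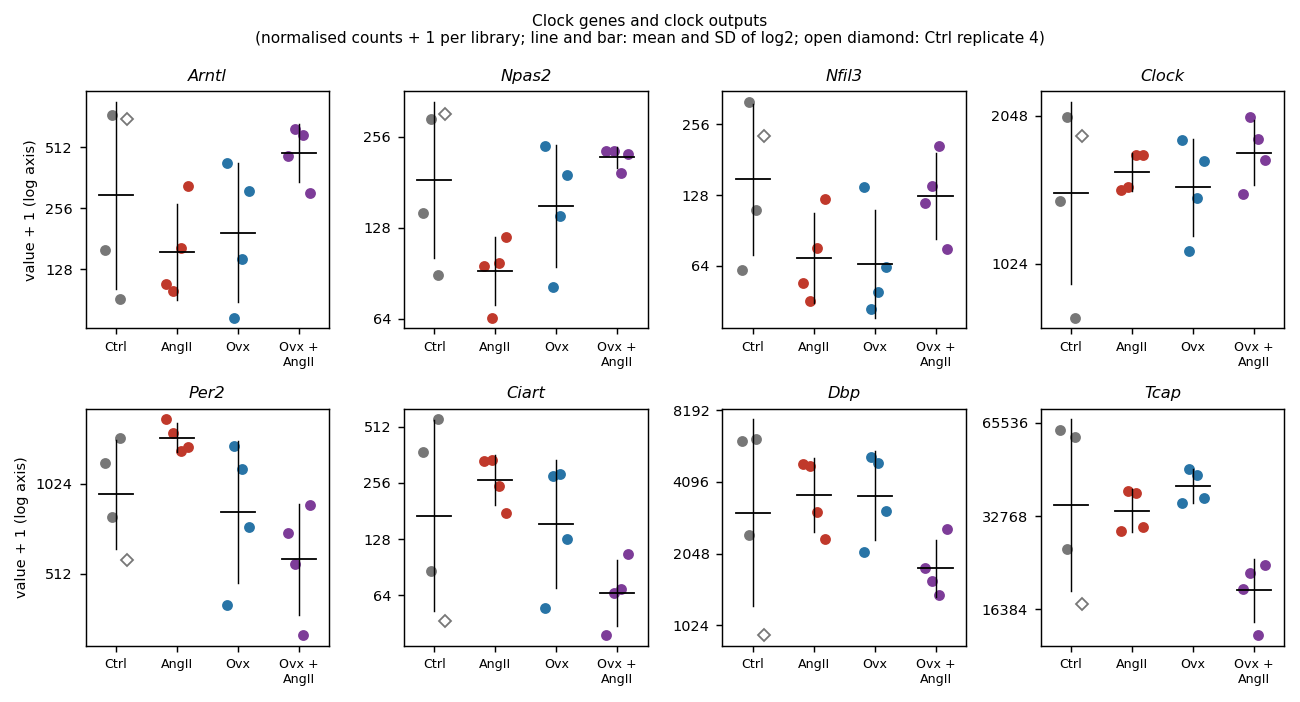
Normalised counts + 1 on a log axis in each library for 8 clock genes and outputs, with the mean and SD of the log2 values per group and Ctrl replicate 4 as an open diamond. The Ovx + AngII libraries sit above the AngII libraries for Npas2 (194 to 229 against 63.6 to 118) and below them for Per2 (318 to 865 against 1317 to 1680.0), while the Ctrl libraries are spread widely in both.

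The interactions were 2.23 ± 0.92 for Arntl, 1.53 ± 0.51 for Npas2 and 2.06 ± 0.70 for Nfil3, a repressor of clock output genes. The unadjusted p-values were 0.0269, 0.00867 and 0.00901. The interactions were -1.16 ± 0.51 for Per2, -1.86 ± 0.95 for Ciart, -1.26 ± 0.68 for Dbp, -0.56 ± 0.28 for Cry2 and -0.49 ± 0.16 for the nuclear receptor Rora. In the same order, the unadjusted limma p-values were 0.0383, 0.0667, 0.0843, 0.0604 and 0.00849. Under AngII, the Ovx + AngII mice differed by 1.80 ± 0.65 in Arntl, 1.42 ± 0.36 in Npas2, -1.18 ± 0.36 in Per2 and -1.84 ± 0.67 in Ciart. The untreated differences of these 4 genes were -0.44, -0.12, -0.03 and 0.013. Arntl, Npas2, Per2, Ciart and Dbp were assigned to the AngII level with and without Ctrl replicate 4. Cry2 passed from both to the AngII level, Nfil3 stayed with both, and Rora with the untreated baseline. On deposited values Rora was assigned to the AngII level. Without Ctrl replicate 4 the interactions were 1.81 (Arntl), 1.29 (Npas2), 1.85 (Nfil3), -0.92 (Per2), -1.24 (Ciart) and -0.69 (Dbp). Their unadjusted limma p-values in that fit were 0.0588, 0.0194, 0.019, 0.083, 0.152 and 0.19. Clock itself (0.092 ± 0.32) and Nr1d1, the repressor Rev-erb alpha (-0.12 ± 0.27), were near 0 and changed sign between fits. Clock was assigned to the AngII level and Nr1d1 to the untreated baseline, and each passed to the other place without Ctrl replicate 4. With interactions this small, these assignments place almost no difference. Tcap, the titin cap protein of the Z-disc, had 29386, 39378, 38904 and 30208 counts in AngII and 19100.3, 21403, 13544 and 22840.0 in Ovx + AngII mice, without overlap. It fell by 1.12 with AngII in Ovx mice (limma adjusted p = 0.0346) and gave an interaction of -1.06 ± 0.45, -0.71 without Ctrl replicate 4, from the AngII level in both fits. Its Ctrl libraries (62016, 25613, 59104 and 17038) split in the same way as for Per2.

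Of the 18 core clock and output genes, 5 had an interaction above 0 and 13 below, with a median of -0.63 (-0.49 without Ctrl replicate 4). The AngII-treated groups did not overlap on rescaled values for 7 of them, 2 higher and 5 lower in Ovx + AngII mice, beside the 4.54% of all genes given above. For the untreated groups it was 1 of 18. The AngII level held most of the difference for 11 of the 18, the untreated baseline for 3. The study states that animals were not killed at the same time of day, but in general within a window of a few daytime hours. The hour of each library is not in the labels, so the part of sampling time in these values was not tested. The promoter of Ciart (chr3:95882229-95882478, minus strand) is shown as an example of a clock target, chosen after its values were seen, and held 3 E-boxes, 116, 58 and 44 bases before the start.
Ciart: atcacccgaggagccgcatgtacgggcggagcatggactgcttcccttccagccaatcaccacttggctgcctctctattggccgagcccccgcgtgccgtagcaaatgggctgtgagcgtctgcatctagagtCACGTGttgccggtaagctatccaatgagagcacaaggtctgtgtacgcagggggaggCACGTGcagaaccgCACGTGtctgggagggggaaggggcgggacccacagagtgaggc

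Among genes with a less familiar role in the AngII response, the smallest unadjusted p was that of Tom1l1, an endosomal adaptor (chromosome 11, 90645690 to 90688279). Tom1l1 had 642, 598, 595 and 623 normalised counts in the 4 Ctrl libraries and 556, 504, 519 and 493 with AngII. It had 425, 467, 402 and 403 in Ovx and 488, 516, 490.2 and 520.4 in Ovx + AngII mice. All Ovx libraries lay below all Ctrl libraries. The interaction was 0.49 ± 0.10, unadjusted p = 0.000129, and 0.49 without Ctrl replicate 4, from the untreated baseline in both fits (-0.37 ± 0.07 against 0.13 ± 0.07). Pdxk, pyridoxal kinase of vitamin B6 metabolism (chromosome 10, 78436747 to 78464948), had the smallest p below 0. Pdxk had 994, 901, 1058 and 775 normalised counts in the 4 Ctrl libraries and 1087, 1157, 967 and 1014 with AngII. It had 738, 954, 919 and 770.2 in Ovx and 607, 626, 558 and 696 in Ovx + AngII mice. The 2 AngII-treated groups did not overlap. The interaction was -0.62 ± 0.15, unadjusted p = 0.000841, and -0.54 without Ctrl replicate 4. It came from the AngII level in both fits (-0.59 ± 0.11 against 0.026 ± 0.11 untreated). Ramp2, which makes the calcitonin receptor-like receptor respond to adrenomedullin, was likewise assigned to the AngII level in both fits. It had 1434, 1574, 1329.7 and 1344 counts in AngII and 954, 819, 1106 and 932 in Ovx + AngII mice, and an interaction of -0.49 ± 0.13, -0.43 without Ctrl replicate 4.

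The other 9 genes chosen for the smallest p above 0 had interactions of 0.29 to 0.996. Micu2, a regulator of the mitochondrial calcium uniporter (0.29 ± 0.08), the tetraspanin Tspan9 (0.33 ± 0.093) and B3galt6, which builds the glycosaminoglycan linker (0.81 ± 0.23), came from the AngII level in both fits. On deposited values Micu2 and Tspan9 passed to the untreated baseline and B3galt6 to both. Armc2 (0.92 ± 0.25), Fam43a (0.56 ± 0.16) and the ribonuclease Rnaset2a (0.44 ± 0.12) came from both and passed to the AngII level without Ctrl replicate 4. The transcriptional co-regulator Cited1 (0.996 ± 0.27) and the signal peptidase subunit Spcs3 (0.49 ± 0.14) came from both in either fit, and the poly(A)-binding protein gene Pabpc4 (0.37 ± 0.11) passed from both to the untreated baseline. Of the 10 others below 0, the range was -1.16 to -0.37. Pgm2l1 (-0.82 ± 0.22), the phosphoinositide phosphatase Ocrl (-0.37 ± 0.11) and the receptor phosphatase Ptprf (-0.41 ± 0.12) came from the AngII level in both fits. The polarity gene Crb2 (-0.75 ± 0.19), Zfp759 (-0.93 ± 0.26) and the ubiquitin ligase Shprh (-0.55 ± 0.16) came from the untreated baseline in both. The amylase Amy1 (-1.16 ± 0.29), Stxbp6 (-0.49 ± 0.12) and the mitochondrial serine transporter Sfxn1 (-0.46 ± 0.14) came from both in both. Latrophilin Adgrl1 (-0.56 ± 0.15) passed from both to the AngII level. Of all 12 genes above 0, 2 kept their assignment on deposited values, and of the 12 below 0, 6 did. Amy1 has related amylase genes and Rnaset2a a near-identical copy, so their counts can be affected by how reads were divided. These genes were chosen by the p of the interaction, so their size is no independent finding.

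Protein-folding genes of the endoplasmic reticulum and cytosol leaned above 0. Creld2, an ER stress gene, had 361, 757, 364 and 683 counts in Ctrl, 426, 384, 445 and 379 in AngII, 323, 314, 345 and 286 in Ovx and 453, 552, 499.6 and 461 in Ovx + AngII mice. Ctrl replicates 2 and 4 were the high libraries, as for Arntl. Its interaction was 0.95 ± 0.27, 0.81 without Ctrl replicate 4, from both parts in both fits. The chaperone genes Calr (0.52 ± 0.17) and Hsp90ab1 (0.40 ± 0.12) came from both parts and from the untreated baseline, in both fits. Of 19 heat shock and unfolded protein response genes, 16 were above 0 (median 0.28, 0.22 without Ctrl replicate 4), 5 at an unadjusted p under 0.05. In Ovx against Ctrl mice, 1 of the 19 was above 0, and 0 on deposited values. Among all 14273 genes, 6863 were above 0, and 2693 on deposited values, which hold the scale shift. Of 16 immediate early genes, 14 were below 0 (median -0.20), none at an unadjusted p under 0.05, and 12 were below 0 without Ctrl replicate 4 (median -0.33).

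White adipocyte markers and markers of the outer heart layer leaned below 0. Cidec, a lipid droplet protein, had 129, 84.1, 9.92 and 13.4 counts in Ctrl, 67.7, 56.3, 90.1 and 78.2 in AngII, 347, 103, 77.8 and 77.4 in Ovx and 49.2, 50.1, 2.31 and 125 in Ovx + AngII mice. Retn, the adipokine resistin, had 44.4, 49.8, 9.96 and 12.5 in Ctrl and 200.4, 38.5, 27.9 and 58.5 in Ovx mice. Ovx replicate 1 was the high library for both, and Ctrl replicates 3 and 4 the low ones. The interactions were -2.93 ± 1.34 and -2.25 ± 0.90, with unadjusted p = 0.044 and 0.0234, and -2.49 and -1.97 without Ctrl replicate 4. Both came from the untreated baseline, and Cidec passed to both parts without that library. Of 12 white adipocyte markers 11 were below 0, with a median of -0.77 (-0.65 without Ctrl replicate 4). All 12 were above 0 in untreated Ovx against Ctrl mice, 9 of them on deposited values (median difference 0.75 rescaled). Of all 14273 genes, 6863 and 2693 were above 0 on these 2 scales. Their summed level was 13549 to 18667 in Ctrl, 12979 to 17409 in AngII, 13797 to 20573 in Ovx and 11885 to 14935 in Ovx + AngII mice, with Ctrl and Ovx overlapping. Of 6 brown adipocyte markers 4 were above 0, and 5 without Ctrl replicate 4, with medians of 0.02 and 0.079. In bulk tissue, fewer cells of a type and less RNA per cell cannot be told apart. Of 10 epicardial and mesothelial markers, 9 were below 0 (median -0.37, -0.28 without Ctrl replicate 4). Msln, Krt18 and Upk1b gave -0.56 ± 0.22, -0.57 ± 0.22 and -0.59 ± 0.27, from both parts, from the AngII level and from the untreated baseline. Without Ctrl replicate 4 only Krt18 of the 3 was reassigned, to both.

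**Figure D5:**
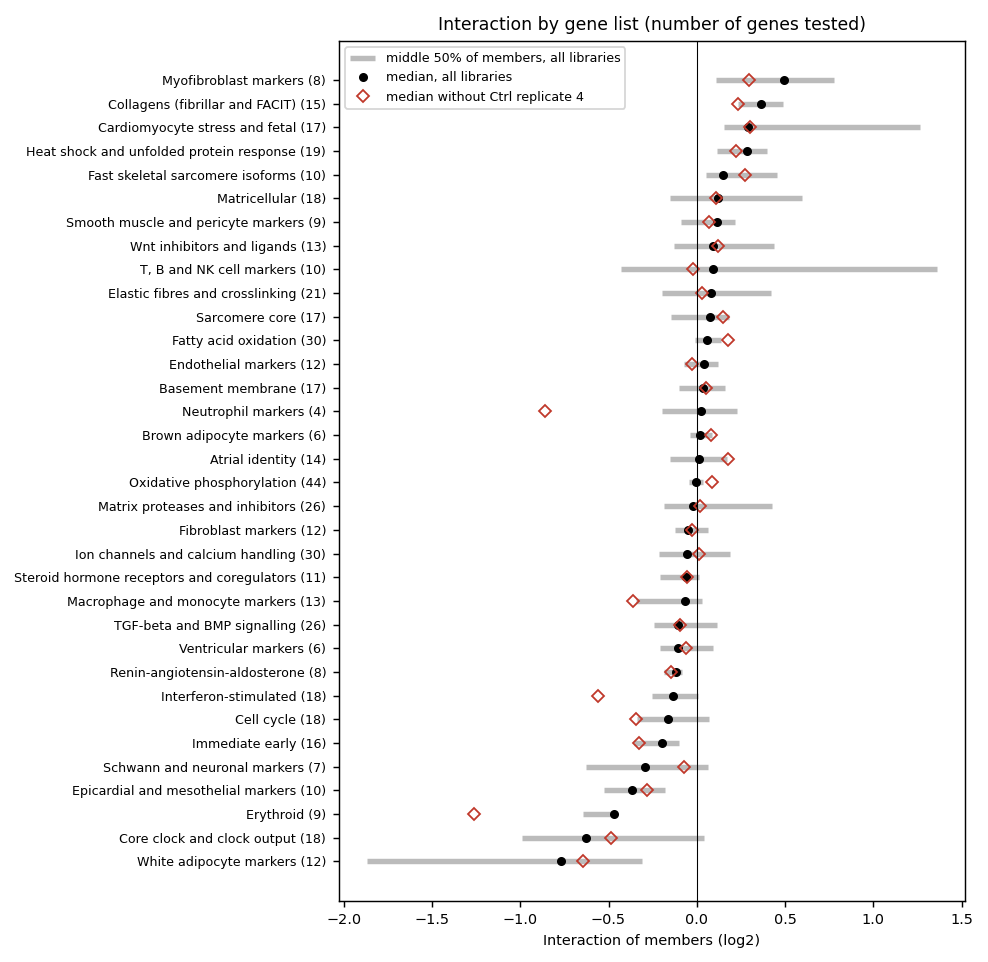
Median interaction (log2) of the members of 34 gene lists with at least 3 tested genes, with all 16 libraries (black) and without Ctrl replicate 4 (red diamonds), and the middle 50% of the members as grey bars. White adipocyte markers (-0.77) and clock genes (-0.63) have the lowest medians, and erythroid, neutrophil and interferon-stimulated genes shift most without that library.

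For several lists Ctrl replicate 4 set the outcome. The 18 interferon-stimulated genes had a median of -0.13 with 6 above 0, and -0.56 with 0 above 0 without it. With all libraries each of the 18 had a lower mean in Ovx than in Ctrl and in Ovx + AngII than in AngII mice, on either scale, and none passed the test. The median untreated difference of the 18 was -0.63 on rescaled values, and -0.19 without Ctrl replicate 4. For 4 of them the AngII-treated groups did not overlap, beside 4.54% of all genes. The 13 macrophage and monocyte markers passed from -0.068 to -0.36, the 4 neutrophil markers from 0.025 to -0.86 and the 9 erythroid genes from -0.47 to -1.26. The erythroid sums were 198132 in Ctrl replicate 4 and 314535 in AngII replicate 4, and in the others 11206 to 76236. Without both, the erythroid median was -0.55 and the interferon median -0.69. The 44 oxidative phosphorylation genes had 21 interactions above 0 with all libraries and 41 without Ctrl replicate 4. Their medians were -0.0021 and 0.088. Their median AngII response was -0.19 in mice with ovaries, -0.30 without that library, and -0.22 in Ovx mice. Of 30 fatty acid oxidation genes, 22 were above 0 and 26 without it, with medians of 0.056 and 0.18. None of these members of the 2 metabolic lists had an unadjusted p under 0.05.

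Ion channel and other marker genes completed the named set. Kcnip2, a subunit of the transient outward potassium channel, gave 0.84 ± 0.28 from both parts, and Cacna1c, the L-type calcium channel, 0.30 ± 0.11 from the AngII level, in both fits. Rcan1, a calcineurin regulator, gave 0.62 ± 0.20 from the AngII level, and the secreted glycoprotein gene Dkk3 0.44 ± 0.15 and the M-band gene Myom2 0.34 ± 0.12 from both parts, in both fits. Ptprb, an endothelial phosphatase, gave 0.31 ± 0.12, and the fibroblast gene Pi16 0.38 ± 0.16, from the untreated baseline in both fits. Below 0, the collagen receptor Ddr2 (-0.33 ± 0.11), the fibulin Efemp1 (-0.38 ± 0.18) and Bmpr1a (-0.21 ± 0.10) came from the untreated baseline in both fits. On deposited values Ddr2, Efemp1 and Bmpr1a passed to the AngII level, and Cacna1c and Rcan1 to the untreated baseline. Thbs3 (-0.53 ± 0.17) came from the AngII level and Wnt11 (-0.57 ± 0.19) from both parts, in both fits. Cd8a, of cytotoxic T cells, gave 2.19 ± 0.92 from both parts in both fits, with 9.40, 14.7, 95.5 and 72.5 counts in Ctrl libraries. Ager, a marker of alveolar type I cells, gave -1.80 ± 0.50 from the AngII level in both fits, at 14.9 to 24.8 counts in AngII and 4.39 to 9.34 in Ovx + AngII mice. The 7 lung markers in the table, of which it is 1, summed to 61.6 to 72.4 in AngII and 30.2 to 54.9 in Ovx + AngII mice. These sums are as deposited and hold the scale shift between the sides, -0.17 on the log2 scale for the median gene. On rescaled values the 2 tested lung markers, Ager among them, had a median difference of -0.86 under AngII. The part of lung tissue was not tested.

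Over all 79 named genes, the difference came from the untreated baseline for 32, from the AngII level for 22 and from both for 25. Without Ctrl replicate 4, 64 kept their assignment, and 2 (Clock and Nr1d1) passed from one place to the other. The scale mattered more, since on deposited values only 39 of the 79 kept it. There Micu2, Tspan9, Cacna1c and Rcan1 passed from the AngII level to the untreated baseline. Agtr1a, Rora, Efemp1, Ddr2, Bmpr1a and Esr1 passed the other way. Of the 25 named genes with an interaction of at least 1 in size, 20 kept their assignment on deposited values and 22 without Ctrl replicate 4. Of the 54 with a smaller interaction, 19 and 42 did. Among the 413 genes above 0 at an unadjusted p under 0.05, 142 came from the untreated baseline, 140 from the AngII level and 131 from both. Among the 415 below 0 the counts were 207, 100 and 108. Over all 14273 genes they were 7013, 5735 and 1525, which includes genes with very small interactions, for which the assignment says little. When Ctrl replicate 4 was left out, 341 of the 413 and 354 of the 415 kept their assignment, and each kept its sign. Of all 14273 genes, 10290 kept their assignment and 12181 their sign. The 413 and 415 were chosen by p with that library included, so this is no independent check of them.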

How the data were processed

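LA mRNA was sequenced in 16 libraries, 4 per group. The authors mapped reads with STAR, quantified them with Salmon against mm10 and normalised counts with DESeq2, and deposited 1 table of these normalised counts, a signal per gene, for all 16 libraries. Tool versions are not given in the sources used here. Most but not all low values were whole multiples of 1 read (76.9% to 91.0% within 0.1 of a whole multiple). No count test was therefore run, and the read depth of single libraries is not in the files. Of 24972 genes, 5997 were at 0 in all libraries, and 14 symbols turned into dates (0.0721% of values) were not named. Replicate numbers follow the order of the samples and pair nothing.

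Values were analysed as log2(value + 1), which understates changes of low genes, for genes with a mean of at least 10. limma 3.58.1 in R 4.3.3 fitted 4 group means with a mean trend, and p-values are two-sided and Benjamini-Hochberg adjusted over all genes tested. Calls of the interaction needed an adjusted p of 0.05 or less, and the other contrasts also a log2 change of 1 or more. The procedure was tested on simulated data. Level differences used values rescaled by median of ratios, since the 2 scales are not part of the interaction.

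The 79 named genes were taken by 3 rules. The first took the 12 with the smallest p above 0 and the 12 below 0 (mean of at least 50, no predicted symbols). The second was a chosen list of load-response, clock and other genes, Tom1l1 and Pdxk among them. The third took up to 3 members of each of 36 gene lists with an unadjusted p under 0.05. The members, lists and tests were chosen with earlier results of these data known. The values of 1 of the 79 are not reported here, though it is kept in the counts. All 79 were found in RefSeq (GRCm38.p6), which gave positions and promoter sequences. Alternatives were other pseudocounts and filters, no filter, robust variances, array weights, the other scale, fits on the 2 compared groups, and each library left out. Leaving out replicates 4 of both the Ctrl and AngII groups was added after seeing the data.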

Additional observations from a re-analysis of the deposited data

Results flagged for a closer look

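In the 316 sets of 4 libraries examined (79 named genes in 4 groups), 17 had a single library far from the other 3 of its group, while chance alone gives about 15.8. Ctrl replicate 3 was low for Shprh (359.9 normalised counts, others 492 to 519), Rora (879, others 1078 to 1099) and Wnt11 (163, others 194 to 200.3), and high for Cacna1c (4389.7, others 3687 to 3719). Ctrl replicate 1 was high for Bmpr1a (2799, others 2518 to 2555) and Ctrl replicate 4 low for Msln (1338, others 1881 to 2006).

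Among the AngII libraries, replicate 1 was high for Zfp759 (121, others 113 to 114), replicate 2 low for Col6a3 (1486, others 2297 to 2419.8) and replicate 3 high for Ctgf (32423, others 19503 to 20510). Among the Ovx libraries, replicate 2 was low for Esr1 (98.7, others 147 to 153) and Rcan1 (1012, others 1266 to 1284), replicate 1 high for Tspan9 (1902, others 1591 to 1625) and replicate 4 high for Nppb (4469, others 3818 to 3865). In Ovx + AngII mice, replicate 1 was low for Rora (737, others 1057 to 1136), replicate 2 low for Dkk3 (23026, others 26781 to 27513), replicate 3 low for Npas2 (194, others 223 to 229) and replicate 4 low for Tspan9 (2490.0, others 2685 to 2714).

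Without the library in question each of these interactions kept its sign. The largest relative change was that of Esr1, from -0.024 to -0.17, and Col6a3 passed from 0.54 to 0.38 without AngII replicate 2.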

How the results depend on the processing

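Counts of called genes moved with single libraries, with the groups fitted and with the scale of the values. For the interaction, 1 gene was called without AngII replicate 1 (Retnla, a resistin-like protein of macrophages and adipose tissue, -1.84, limma adjusted p = 0.000604, against -0.81 with all libraries) and 0 under each other setting, so leaving out single libraries gave 0 to 1. For the AngII response in mice with ovaries, 83 genes were called with all libraries, 161 with array weights, 2 with the 2 compared groups alone, 30 to 222 without single libraries and 300 without both replicates 4 (added after seeing the data). The lowest counts came without Ctrl replicate 1 or AngII replicate 3, and the highest without Ctrl replicate 4. In Ovx mice 333 became 457 with array weights, 415 with the 2 compared groups alone, 240 with a mean of at least 50, 391 without both replicates 4, and 209 to 380 without single libraries, the lowest without Ovx + AngII replicate 3. Ovx against Ctrl had 0 genes, 32 on deposited values and 0 to 1 without single libraries (Phlda1 without Ctrl replicate 1). Ovx + AngII against AngII had 0, with 5 on deposited values, 0 to 2 without single libraries (Ifi205 and Retnla without AngII replicate 1) and 1 without both replicates 4 (Shank2). Genes named here beside the counts were chosen after their values were seen.

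The interaction of 76 of the 79 named genes kept its sign under each of the 24 alternatives that tested it. None passed the adjusted test (limma, smallest adjusted p 0.441). Ager, Cd8a and Retn were tested under 23, since they fall below the filter of a mean of at least 50. The sign of Esr1 changed with array weights (0.16) and without single libraries (-0.24 to 0.24), that of Clock without single libraries (-0.079 to 0.37), and that of Nr1d1 with array weights (0.13) and without single libraries (-0.28 to 0.065). The causes were not tested. No paired analysis was possible because replicate numbers only follow the order of the samples. With 4 libraries per group and no read counts, small differences in low genes were not detectable.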

Other observations

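The lists not described above are given by their interactions, beside a median of 0.0083 for all genes tested. Of 8 myofibroblast markers 6 were above 0 (median 0.49, 0.30 without Ctrl replicate 4), and AngII raised 4 of them in Ovx mice and 0 in mice with ovaries at the thresholds used, beside 1.3% and 0.343% of all genes. Of 21 elastic fibre and crosslinking genes 13 were above 0 (median 0.081, 0.027 without Ctrl replicate 4), with 7 raised in Ovx mice and 2 in mice with ovaries, beside the same shares of all genes. In the next lists, the median with all libraries is followed by that without Ctrl replicate 4. It was 0.036 and 0.052 for 17 basement membrane genes, 0.12 and 0.070 for 9 smooth muscle and pericyte markers, and -0.051 and -0.027 for 12 fibroblast markers. The sign of the median turned for 26 matrix proteases and inhibitors (-0.024 and 0.018), 12 endothelial markers (0.042 and -0.028) and 30 ion channel and calcium handling genes (-0.055 and 0.014). In cardiomyocyte lists, it was 0.074 and 0.15 for 17 core sarcomere genes, 0.15 and 0.27 for 10 fast skeletal isoforms, 0.010 and 0.17 for 14 atrial identity genes, and -0.11 and -0.064 for 6 ventricular markers.

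Of 8 renin-angiotensin-aldosterone genes 1 was above 0 (median -0.12), and of 11 steroid receptors and coregulators 3 (median -0.061), none at an unadjusted p under 0.05. The 13 Wnt inhibitors and ligands had a median of 0.092. The 18 cell cycle genes passed from -0.16 to -0.34 without Ctrl replicate 4, the 7 Schwann and neuronal markers from -0.29 to -0.074 and the 10 T, B and NK cell markers from 0.092 to -0.019. The 2 tested lung epithelium markers passed from -0.63 to -1.29, and the 1 tested thymus, thyroid or skeletal marker gave -0.021, and -0.039 without that library. These are descriptions without a test.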
